A study of Mus musculus with 19 samples.

Results

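The collagen genes are described here by the 46 probes of a mouse liver expression array whose gene symbol has the form of a collagen chain, Col with a number, a and a number. They stand for 41 genes among 23568 probes and 18788 symbols, and all 46 probes were tested. By class, 11 probes belong to 11 fibrillar chains (Col1a1, Col1a2, Col2a1, Col3a1, Col5a1, Col5a2, Col5a3, Col11a1, Col11a2, Col24a1 and Col27a1) and 8 probes to 8 chains of basement membranes (Col4a1 to Col4a6, Col15a1 and Col18a1). The remaining 27 probes belong to 22 genes. These are the beaded filament chains Col6a1, Col6a2, Col6a3, Col6a4 and Col6a6, the chains Col9a1, Col9a2, Col12a1, Col14a1, Col16a1, Col19a1, Col20a1 and Col22a1, which sit on or between fibrils, and the short chains Col8a1, Col8a2 and Col10a1. The class also holds the transmembrane chains Col13a1, Col17a1, Col23a1 and Col25a1, the anchoring fibril chain Col7a1, and Col28a1. Col20a1, Col22a1, Col23a1 and Col28a1 have more than 1 probe each. A RefSeq table lists 44 mouse genes of this form, so 3 were not measured.

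Collagens are secreted proteins of 3 chains wound into a triple helix. Fibrillar collagens such as types I, III and V assemble into the ropes of scar and connective tissue, type IV chains form the network of basement membranes, and type VI forms beaded filaments between them. In liver, hepatic stellate cells and portal fibroblasts are the best known sources of fibrillar collagen, and its build-up is the defining feature of liver fibrosis.

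The livers were of B6 wild type and of mice labelled 5LO, which lack 5-lipoxygenase, the enzyme that starts leukotriene synthesis. The diet was chow or an atherogenic food rich in fat, cholesterol and cholate, eaten for 16 weeks by mice that were 20 weeks old. There were 5 wild-type mice on chow, 4 on the atherogenic diet, and 5 knockout mice on each. On each array the red dye, Cy5, marked RNA of 1 mouse, and the green dye, Cy3, marked pooled RNA of wild type fed the same diet. Genotypes are therefore compared by the log2 ratio of mouse to pool, and diets by the mouse's own intensity after normalisation, since the pool differs between the diets. In whole liver, fewer cells of a type and less RNA per cell cannot be told apart.

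Measured probes per array ranged from 22763 to 23511 over the 19 arrays, whose number limits the precision. Mice are named by a letter within their group. Knockout D on chow stood apart: the SD of its log ratios over all probes was 1.01, against 0.239 to 0.538 on the other arrays, and its summed hepatocyte markers were at 25.6, against 42.9 to 118 in the other mice. The hepatocyte markers Alb and Apoa1 lay at the 90.2nd and 99.7th percentile of brightness. The Alox5 probe, of the deleted gene, was dim, with ratios from -0.415 to 0.415 in wild type and 0 to 0.485 in knockout on chow. It gave no check of the genotype labels.

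Intensities are deposited to 2 decimals, so a probe is called dim here when its median over both channels and all arrays was under 0.1, where a step of 0.01 is over 10% of the value. By this measure 31 of the 46 collagen probes were dim, as were 55.7% of all probes. The 15 brighter ones are Col1a1, Col1a2, Col2a1, Col5a1 and Col27a1 among the fibrillar chains, Col4a1, Col4a2 and Col18a1 of the basement membrane, and Col6a1, Col6a3, Col8a2, Col13a1, Col14a1, Col16a1 and 1 of the 3 probes of Col23a1. The probe of Col3a1, the main chain of type III collagen, had a median of 0.02 and could show little: its diet effect in wild type was -0.07 on the log2 scale with an adjusted p of 0.966. Brightness depends on the probe and is not compared between genes.

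The first question is what the atherogenic diet did to collagen transcripts in wild-type liver. Both chains of type I collagen, the main fibrillar collagen of scars, rose the most. Tests are those of limma across 23344 probes with Benjamini-Hochberg adjustment and a threshold of 0.05. The wild-type mice on chow measured 0.07, 0.10, 0.06, 0.04 and 0.05 for Col1a1, which encodes the alpha 1 chain, and those on the atherogenic diet 0.87, 1.27, 0.47 and 0.65. Every atherogenic value lay above every chow value. After normalisation the difference was 3.43 on the log2 scale (SE 0.37, adjusted p = 9.61e-06), a 10.8-fold rise with a 95% interval from 6.29 to 18.5. On chow the Col1a1 values lay at or below 0.10, where rounding is coarse. Col1a2, the alpha 2 chain, measured 0.20, 0.27, 0.20, 0.15 and 0.17 on chow and 1.04, 1.01, 0.60 and 0.98 on the atherogenic diet. It rose by 1.97 (SE 0.21, adjusted p = 9.08e-06), 3.92-fold with an interval from 2.89 to 5.32. Wild-type C on the atherogenic diet was the lowest of its group for both chains.

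Knockout mice showed the same 2 rises. Col1a1 measured 0.08, 0.09, 0.19, 0.17 and 0.25 on chow and 0.43, 0.66, 0.61, 1.24 and 0.57 on the atherogenic diet, without overlap. The rise was 2.00 (SE 0.35, adjusted p = 0.00148), 4.00-fold with an interval from 2.41 to 6.66. Col1a2 went from 0.31, 0.24, 0.36, 0.29 and 0.33 to 0.71, 1.08, 0.76, 1.26 and 0.89, and rose by 1.33 (SE 0.20, adjusted p = 0.000305). For both chains the knockout mice on chow tended to sit above wild type on chow, while on the atherogenic diet the genotypes mixed. The diet effect was smaller in knockout than in wild type by 1.43 for Col1a1 (interval of the knockout minus wild-type effect -2.50 to -0.36, unadjusted p = 0.0113) and by 0.64 for Col1a2 (-1.24 to -0.03, unadjusted p = 0.0406). Neither difference passed the adjustment over all probes, with adjusted p of 0.746 and 0.792.

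**Figure D1:**
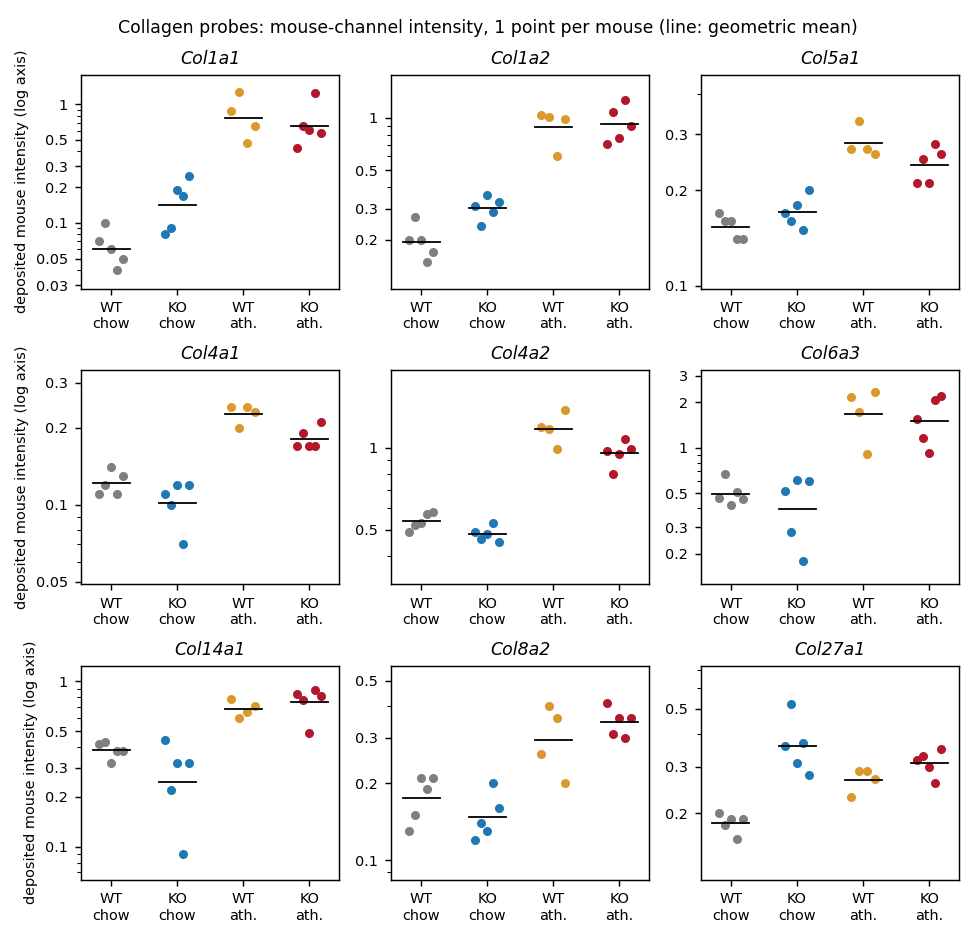
Deposited mouse-channel intensity (log axis, arbitrary units) of 9 collagen probes, with 1 point per mouse and a line at the geometric mean of each group (WT wild type, KO knockout, ath. atherogenic diet). Col1a1, Col1a2, Col4a1, Col4a2 and Col6a3 lie higher on the atherogenic diet in both genotypes without overlap, while Col27a1 is highest in knockout mice on chow.

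Upstream sequences are shown for Col1a2 and Col6a3, which rose with the diet in both genotypes, and for Col27a1, which the genotypes separated on chow. Each is the 250 bases before the transcription start, from RefSeq on GRCm38.p6, read 5′ to 3′ on the gene's strand. Capitals mark exact matches, on either strand, to 3 motifs. The motif of the TATA box was spelled TATAAA. That of the CCAAT box had only the 5 letters of its name. The GC box was spelled GGGCGG. No matches overlap.
Col1a2, chr6:4505368-4505617, plus strand: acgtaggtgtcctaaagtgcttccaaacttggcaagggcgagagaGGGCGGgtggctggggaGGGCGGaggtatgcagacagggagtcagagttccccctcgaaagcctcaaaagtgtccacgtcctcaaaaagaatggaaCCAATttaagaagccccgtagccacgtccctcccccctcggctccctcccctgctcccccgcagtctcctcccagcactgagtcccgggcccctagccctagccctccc
Col6a3, chr1:90843972-90844221, minus strand: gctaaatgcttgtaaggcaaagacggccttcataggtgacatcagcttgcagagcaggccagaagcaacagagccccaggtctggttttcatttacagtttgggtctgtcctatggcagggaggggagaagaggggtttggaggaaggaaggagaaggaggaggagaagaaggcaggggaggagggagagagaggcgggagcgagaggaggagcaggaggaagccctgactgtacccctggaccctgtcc
Col27a1, chr4:63215162-63215411, plus strand: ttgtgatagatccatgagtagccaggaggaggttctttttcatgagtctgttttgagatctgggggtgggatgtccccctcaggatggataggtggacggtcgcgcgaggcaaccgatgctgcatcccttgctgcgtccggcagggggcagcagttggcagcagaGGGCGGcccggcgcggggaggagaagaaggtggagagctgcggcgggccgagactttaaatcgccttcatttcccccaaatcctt

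In the Col1a2 window the CCAAT box begins 109 bases before the start and the 2 GC boxes begin 205 and 188 bases before it. The Col27a1 window holds 1 GC box, 85 bases before the start, and the Col6a3 window holds none of the 3 motifs. Among 32851 windows of this length in the RefSeq table, 12.4% hold a TATA box, 33.8% a CCAAT box and 32.7% a GC box. Of the 41 collagen genes, 34 matched an entry, with 37 windows, of which 5 hold a TATA box, 13 a CCAAT box and 21 a GC box. A match describes letters only and is no evidence that a factor binds.

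The other fibrillar chains moved less. Col5a1, a chain of type V collagen, which seeds fibrils and limits their width, measured 0.14 to 0.17 in wild type on chow and 0.26 to 0.33 on the atherogenic diet, without overlap. It rose by 0.59 in log2 (SE 0.15, adjusted p = 0.0213). That call failed under 4 other settings, with adjusted p up to 0.108. In knockout mice Col5a1 measured 0.15 to 0.20 and 0.21 to 0.28, also without overlap as deposited. After normalisation the knockout groups overlapped, with a log2 difference of 0.19 (SE 0.14, adjusted p = 0.413), which 1 other setting called. The diet effects of the genotypes differed by -0.40 (interval -0.83 to 0.03, unadjusted p = 0.0693, adjusted p = 0.811), so a difference between the genotypes was not shown. The partner chain Col5a2 was dim. In knockout mice it measured 0.02, 0.01, 0.02, 0.03 and 0.02 on chow and 0.04, 0.05, 0.03, 0.05 and 0.06 on the atherogenic diet, and it rose 2.32-fold after normalisation (log2 1.21, SE 0.25, adjusted p = 0.00528). In wild type the Col5a2 values overlapped, at 0.03 to 0.06 and 0.04 to 0.07, and the log2 difference was 0.25 (adjusted p = 0.603). These Col5a2 levels are a few rounding steps from 0.

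Col27a1, a fibrillar chain known from cartilage, was the only collagen called lower on the diet in knockout mice. Its log2 difference was -0.54 (SE 0.15, adjusted p = 0.0307), from a group whose chow values were raised, as given below. The fall did not pass the test when the mouse channel was used as deposited (-0.21, adjusted p = 0.456) or only median-centred (-0.41, adjusted p = 0.195), or without knockout B on chow or without knockout A, D or E on the atherogenic diet (adjusted p from 0.0542 to 0.0919). In wild type its diet difference was 0.27 (adjusted p = 0.331). Col2a1, the cartilage collagen, measured 0.26 to 0.45 in wild type on chow and 0.20 to 0.30 on the atherogenic diet. Its diet effects were -0.52 in wild type and -0.68 in knockout (adjusted p = 0.35 and 0.161), and 1 mouse, knockout D on chow, stood at 0.93 against 0.20 to 0.39 in the rest of its group.

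Among basement membrane chains, Col4a1 and Col4a2, which join in the common type IV trimer, rose in both genotypes. Col4a2 measured 0.49, 0.52, 0.53, 0.57 and 0.58 in wild type on chow and 1.19, 1.17, 0.99 and 1.38 on the atherogenic diet. All atherogenic values lay above all chow values, and the rise was 1.96-fold (log2 0.97, SE 0.14, adjusted p = 0.000141). In knockout mice Col4a2 went from 0.49, 0.46, 0.48, 0.53 and 0.45 to 0.97, 0.80, 0.95, 1.08 and 0.99, a 1.64-fold rise (log2 0.71, SE 0.13, adjusted p = 0.00194). Col4a1 measured 0.11 to 0.14 on chow and 0.20 to 0.24 on the atherogenic diet in wild type, and 0.07 to 0.12 and 0.17 to 0.21 in knockout, again without overlap. It rose by 0.63 in wild type (SE 0.18, adjusted p = 0.0436) and by 0.57 in knockout (SE 0.17, adjusted p = 0.0451). Both Col4a1 calls were close to the threshold and failed under 16 of 27 other settings each, with adjusted p up to 0.119 and 0.0843, although the difference stayed positive under each. Without knockout D on chow, the lowest Col4a1 mouse at 0.07, the knockout difference was 0.36 (adjusted p = 0.0422).

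The genes of these 2 chains lie side by side on chromosome 8, on opposite strands, in the RefSeq table. Col18a1, whose C-terminal fragment is endostatin and which hepatocytes are known to make, measured 11.22 to 16.58 in wild type on chow and 15.01 to 22.03 on the atherogenic diet. Its log2 difference was 0.55 in wild type (SE 0.20, adjusted p = 0.107) and 0.30 in knockout (adjusted p = 0.322), so neither passed. Col4a3, a chain best known from the glomerulus of the kidney, was dim, at 0.04 to 0.07 in wild type on chow and 0.02 to 0.06 on the atherogenic diet. It was called lower in wild type (-1.01, SE 0.29, adjusted p = 0.0381) and measured -0.54 in knockout (adjusted p = 0.212). The deposited Col4a3 values of the 2 diets overlap, and the call did not pass under 7 settings. The other 4 chains, Col4a4, Col4a5, Col4a6 and Col15a1, were dim with diet effects from -0.43 to 0.36.

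In the remaining class Col6a3, a chain of type VI filaments, rose about as much as Col1a2. It measured 0.47, 0.67, 0.42, 0.51 and 0.46 in wild type on chow and 2.17, 1.73, 0.91 and 2.33 on the atherogenic diet. The groups did not overlap and the rise was 3.09-fold (log2 1.63, SE 0.34, adjusted p = 0.00473, interval of the fold 1.90 to 5.02). In knockout mice Col6a3 measured 0.52, 0.28, 0.61, 0.18 and 0.60 on chow and 1.55, 1.16, 0.93, 2.06 and 2.20 on the atherogenic diet. The rise was 3.22-fold (log2 1.69, SE 0.32, adjusted p = 0.0026, interval 2.04 to 5.10), and the diet effects of the genotypes differed by 0.06 with an interval from -0.90 to 1.03. The type VI partner chains did not pass: Col6a1 measured 0.55 in wild type and 0.34 in knockout (adjusted p = 0.258 and 0.443), and the dim probe of Col6a2 0.18 and 0.37 (adjusted p = 0.486 and 0.0921).

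Col14a1, which coats the surface of fibrils, and Col8a2, a short chain known from the cornea, rose in knockout mice. Col14a1 measured 0.44, 0.22, 0.32, 0.09 and 0.32 on chow and 0.84, 0.77, 0.49, 0.89 and 0.82 on the atherogenic diet, a 2.56-fold rise (log2 1.36, SE 0.30, adjusted p = 0.00802). In wild type its chow values of 0.32 to 0.43 also lay below the atherogenic values of 0.60 to 0.78, but the log2 difference of 0.63 did not pass (SE 0.32, adjusted p = 0.234). Knockout D on chow held the lowest Col14a1 value, and without it the knockout difference was 0.98 (adjusted p = 0.0037). Col8a2 measured 0.12 to 0.20 in knockout on chow and 0.30 to 0.41 on the atherogenic diet, a 1.89-fold rise (log2 0.92, SE 0.19, adjusted p = 0.0058). In wild type Col8a2 measured 0.13 to 0.21 and 0.20 to 0.40, overlapping, with a log2 difference of 0.50 (adjusted p = 0.144). The diet effects of the genotypes differed by 0.72 for Col14a1 (interval -0.18 to 1.63, unadjusted p = 0.11) and by 0.42 for Col8a2 (-0.16 to 1.01, unadjusted p = 0.145), so a difference between the genotypes was not shown for either.

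Of the transmembrane chains, Col13a1 was not called, with diet effects of -0.62 in wild type and -0.31 in knockout (adjusted p = 0.161 and 0.441). Of the 3 probes of Col23a1, all with negative diet effects, 1 was called. Its brighter probe measured -0.19 in wild type (adjusted p = 0.72), a dim probe fell by 0.83 (SE 0.17, adjusted p = 0.00414), and the third, also dim, measured -0.27 (adjusted p = 0.441), with intervals that overlap. In knockout they measured -0.64, -0.44 and -0.03, and none passed. The dim probe that fell was at 0.04 to 0.06 on chow and 0.02 to 0.05 on the atherogenic diet in wild type, a range of few rounding steps. Col16a1, a fibril-associated chain, measured 0.38 and 0.48 in the 2 genotypes (adjusted p = 0.258 and 0.106). No other probe of this class passed for the diet.

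Counted together, 8 of the 46 collagen probes passed for the diet in wild type, against 7.16% of all 23344 probes, and 9 passed in knockout, against 9.61% of all probes. Higher on the atherogenic diet were 6 collagen probes in wild type (4.62% of all probes were called higher) and 8 in knockout (5.23%). Lower were 2 in wild type (2.54% of all) and 1 in knockout (4.37%). Col1a1, Col1a2, Col4a1, Col4a2 and Col6a3 were called higher in both, which is 83.3% of the wild-type and 62.5% of the knockout calls. For all probes called higher these shares were 57.1% and 50.4%. Most calls lay among the brighter probes. Brightness was taken over both diets, so a rise with the diet can itself lift a probe over the cut of 0.1. This holds for Col1a1, whose pool lay at 0.05 to 0.07 on chow and at 0.85 to 1.04 on the atherogenic diet. Counts and medians of the brighter collagen probes are therefore a description and no independent support. Of the 15 brighter collagen probes 6 passed in wild type and 8 in knockout, against 8.17% and 12.9% of all brighter probes. Of the 31 dim ones 2 and 1 passed, near the 6.37% and 7.07% of all dim probes.

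The median log2 diet effect of the 15 brighter collagen probes was 0.55 in wild type and 0.48 in knockout, beside -0.02 and 0.03 for all brighter probes. Over all 46 it was 0.12 and 0.06. Groups did not overlap for 11 collagen probes in wild type (14.2% of all probes) and for 9 in knockout (8.40%). Without knockout D on chow the same 9 probes passed in knockout, with Col1a1 at 2.03, Col1a2 at 1.33, Col6a3 at 1.43 and Col4a2 at 0.79. By class, 3 fibrillar probes of 11 were called higher in each genotype and Col27a1 lower in knockout. Of the 8 basement membrane probes 2 were called higher in each, with Col4a3 lower in wild type, and of the 27 others 1 was called higher in wild type and 3 in knockout. The wild-type count was 5 without wild-type D or E on chow or wild-type B on the atherogenic diet, where 4.18% to 5.12% of all probes passed.

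No collagen probe passed for the difference of diet effects between the genotypes, and neither did any of the 23344 probes (0%). At an unadjusted p under 0.05 there were 7 collagen probes, 15.2%, against 6.18% of all probes. Used as deposited, without normalisation, the mouse channel put the median of all probes at 0.17 in wild type and 0.10 in knockout, and median-centring without loess put it at -0.18 and -0.09. The median of the brighter collagen probes was 0.79 and 0.79 as deposited and 0.43 and 0.59 median-centred. Of the called probes, 64.6% were higher in wild type and 54.5% in knockout, against 90.4% and 89.9% as deposited and 42.2% and 46.4% median-centred. No called collagen probe changed direction under these scalings.

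**Figure D2:**
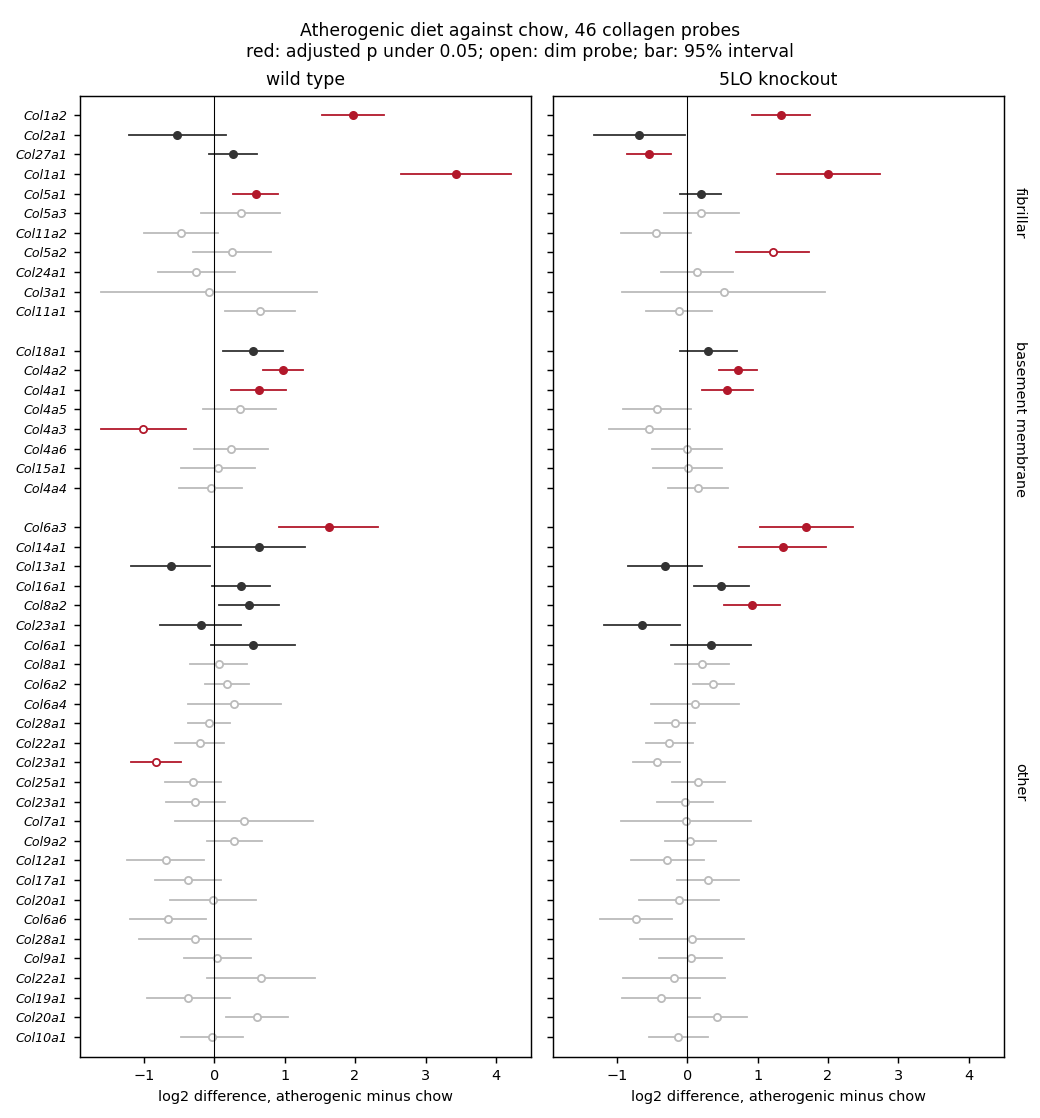
Log2 difference between the atherogenic diet and chow for the 46 collagen probes, by class and by brightness within a class, in wild-type (left) and knockout mice (right), with 95% intervals. Red marks an adjusted p under 0.05, open circles are dim probes. Col1a1 lies furthest to the right in both genotypes, at 3.43 and 2.00, and most dim probes lie around 0.

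The pools gave the same direction for the 6 collagen probes called higher in wild type. They hold wild-type RNA, read in the other dye. The labels give each pool as many mice as the wild-type group of its diet, so the same mice may be in both. These probes were picked by their rise in the wild-type mice, so the shared direction is no independent support. The pool values are as deposited, without normalisation, and are a description with no test. The chow pool lay at 0.05 to 0.07 for Col1a1 on 10 arrays and the atherogenic pool at 0.85 to 1.04 on 9 arrays, a log2 difference of 4.01. For Col1a2 the pools lay at 0.18 to 0.21 and 0.89 to 1.03 (2.31), and for Col6a3 at 0.47 to 0.61 and 1.28 to 1.86 (1.59). Col4a2, Col5a1 and Col4a1 differed by 1.08, 0.96 and 0.91. The spread of a pool over its arrays shows the error of the assay alone, and for Col1a2 it is narrower than that of the mice. It is wider than that of the wild-type mice for Col4a2 on chow, where the pool lay at 0.44 to 0.62. The same holds for Col4a1 on the atherogenic diet, with the pool at 0.17 to 0.26. These ranges cover 10 or 9 pool arrays against 5 or 4 wild-type mice, and a range widens with number. A wider pool range therefore does not show that assay error exceeds the spread of mice.

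Genes that make, modify and bind collagen were set beside it. Of all probes 4.62% were called higher in wild type and 5.23% in knockout, and 2.54% and 4.37% lower. In the lists a gene counts when any of its probes is called, while these shares are per probe. The lists were also chosen with earlier results of these data known, so the shares are a rough guide and no independent test. Of 34 measured genes of collagen processing, 5 were called higher and 2 lower on the diet in wild type. Sparc, a collagen-binding chaperone, rose by 1.44 (adjusted p = 0.00204), Lox, which crosslinks collagen, by 1.48 on a dim probe (adjusted p = 0.00208), and Glt25d1, which adds galactose to collagen, by 0.77 (adjusted p = 0.00232). In knockout mice 4 were called higher and 1 lower. There Adamts2, which trims the ends of procollagen, rose by 1.11 (adjusted p = 0.00343) and Sparc by 0.99 (adjusted p = 0.0319). Fkbp14, an endoplasmic reticulum prolyl isomerase, fell by 0.60 in wild type and by 0.68 in knockout. Serpinh1, the collagen chaperone HSP47, did not pass in either genotype, at 0.62 (adjusted p = 0.0598) and 0.25 (adjusted p = 0.395). The median of the processing list was -0.04 and -0.02, close to that of all probes.

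Of 15 genes of collagen breakdown and its inhibitors, 6 were called higher in wild type and 5 in knockout, and none lower. Of all probes 4.62% and 5.23% were called higher. Timp1, an inhibitor of matrix metalloproteinases, is among the 6 of wild type. Mmp12, the macrophage elastase, rose by 5.80 and 4.58 (adjusted p = 4.98e-06 and 3.77e-05), and Mmp2, a gelatinase, by 1.45 and 1.09 (adjusted p = 0.00353 and 0.0175). Of 9 collagen receptors, Lair1, an inhibitory receptor of immune cells, rose by 1.20 and 1.02 on a dim probe. Ddr1, a receptor kinase, rose in wild type, also on a dim probe (0.95). A list of 19 genes joined TGF beta signalling, which drives collagen transcription, with PDGF ligands and the receptor Pdgfra. In it Tgfbr2 rose by 1.13 and 1.51 (adjusted p = 0.0105 and 0.000663). In all 2 of the list were called higher in wild type and 5 in knockout, Pdgfc among the 5. The Tgfb1 ligand was dim and measured -0.07 and -0.20 (adjusted p = 0.841 and 0.422).

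Of 15 partners of the basement membrane, Nid1, which bridges laminin and type IV collagen, rose by 1.17 and 1.11 (adjusted p = 0.0152 and 0.0146), Lama2 rose in knockout, and Lamb3, a laminin chain of epithelia, fell by 1.99 and 2.15. Of 10 fibril partners, Fbn1, the fibrillin of microfibrils, rose by 1.01 and 0.73, and Tnc, tenascin C, by 1.42 and 1.34 on a dim probe. In knockout mice Thbs2 was also called higher and Tnxb lower.

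Markers of several cell types were called for the diet too. Of all probes 4.62% were called higher in wild type and 5.23% in knockout, and 2.54% and 4.37% lower. A single called marker in a short list cannot be told apart from these shares. The marker lists too were chosen with earlier results of these data known. Of 11 measured stellate cell markers, Vim, Lum and Dcn were called higher in both genotypes, with Vim at 2.24 and 1.87, Lum at 1.63 and 1.57, and Dcn at 0.88 and 0.67. Acta2, Lrat and Pdgfrb, also on the list and named after their values were seen, did not pass. They measured 0.23, -0.01 and 0.48 in wild type (adjusted p = 0.66, 0.986 and 0.15). In knockout they measured 0.08, 0.44 and 0.44 (adjusted p = 0.88, 0.226 and 0.141). The median of the stellate list was 0.19 in wild type and 0.42 in knockout. The summed normalised intensity of the list ran from 34.9 to 43.4 in wild type and 36.4 to 47.7 in knockout on chow, and from 51.3 to 75.4 and 54.8 to 74.3 on the atherogenic diet. Of 8 macrophage markers 7 rose in both genotypes, and their summed intensity ran from 2.91 to 10.1 and 2.80 to 4.77 on chow and from 13.1 to 16.5 and 10.6 to 20.6 on the atherogenic diet. Of 7 cholangiocyte markers Spp1 and the dim Prom1 rose in both, while Krt19 measured -0.03 and -0.52 (adjusted p = 0.961 and 0.128). Of 7 portal fibroblast markers Gas6 was called in wild type and none in knockout, with sums of 4.04 to 5.54 and 5.33 to 8.19 by diet in wild type and 5.10 to 8.08 and 5.45 to 7.34 in knockout. The 8.08 was knockout D on chow. Of 5 markers of vascular smooth muscle none was called, with sums between 0.239 and 0.353 in all 4 groups. Of 9 markers of sinusoidal endothelium, which makes type IV collagen, the dim Lyve1 was called higher in wild type, at 1.05 (adjusted p = 0.0431), and measured 0.38 in knockout (adjusted p = 0.414). The endothelial sums ran from 8.08 to 12.4 and 9.98 to 14.9 by diet in wild type and from 8.61 to 11.1 and 8.09 to 12.7 in knockout. Of 5 hepatocyte markers Ass1 was called higher in both genotypes, on 1 of its 2 probes in wild type (0.48, adjusted p = 0.0467) and on both in knockout (0.73 and 0.83). Single markers of other lists were called in 1 genotype: in knockout the dim mesothelial Wt1 (2.23), the dim epithelial Krt5 (0.84) and the erythroid Alas2 (0.68) higher and the dim muscle marker Tnnc2 lower (-0.84), and in wild type the dim bone marker Bglap lower (-0.84). The part of these cell types in the collagen rises was not tested.

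The second question is how the knockout differed from wild type on each diet. On chow 2 collagen probes of 46 passed, Col27a1 higher and Col5a2 lower, against 1.13% of all probes. The log2 ratios of Col27a1 to the wild-type chow pool were 0.32, 0.00, 0.00, 0.00 and 0.00 in wild type and 1.26, 1.61, 0.95, 0.96 and 0.90 in knockout. The genotypes did not overlap, with a mean of 0.06 ± 0.14 in wild type and 1.14 ± 0.30 in knockout (SD, n = 5 each). At 0.00 mouse and pool were deposited with the same rounded intensity, so the wild-type SD rests on rounding and the mouse at 0.32. The difference was 1.07 (SE 0.12, adjusted p = 0.00133), a 2.11-fold rise with an interval from 1.77 to 2.51. In intensity this was 0.16 to 0.20 in wild type and 0.28 to 0.52 in knockout. Without knockout D the difference was 1.12 (adjusted p = 0.000893). The call did not pass after scale normalisation between arrays (0.67, adjusted p = 0.797) or quantile normalisation (0.84, adjusted p = 0.186), under which none of all probes passed on chow.

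Col5a2 fell by 1.16 on chow (SE 0.26, adjusted p = 0.0427), from ratios of -0.42 to 0.58 in wild type to -2.00 to -0.74 in knockout, without overlap. The probe is dim, at 0.01 to 0.03 in knockout, and the call did not pass under 17 of 27 other settings. The type I chains lay higher in knockout on chow without passing: Col1a1 had ratios of -0.58 to 0.74 in wild type and 0.42 to 2.32 in knockout (difference 1.28, SE 0.34, adjusted p = 0.0574), and Col1a2 of -0.26 to 0.43 and 0.34 to 0.92 (difference 0.70, SE 0.20, adjusted p = 0.0639). The genotypes overlapped for both. On chow the Col1a1 ratios divide by a pool at 0.05 to 0.07, where rounding is coarse. Col1a1 passed without knockout A, with array weights and with dim probes left out, Col1a2 in the first and last of these. Col1a1 counts as not dim only through its values on the atherogenic diet. The brighter probe of Col23a1, a transmembrane collagen, had ratios of -0.10 to 0.21 in wild type and 0.34 to 1.69 in knockout, without overlap, and a difference of 0.65 that did not pass (SE 0.19, adjusted p = 0.073).

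The chow count of 2 collagen probes depended on single mice. It was 7 (15.2%) without knockout A on chow, where 16.5% of all probes passed, and 4 (8.70%) without knockout C, where 5.23% of all did. It was 1, Col27a1 alone, without wild-type B, C, D or E on chow, knockout B, D or E on chow, wild-type A, B or D on the atherogenic diet, or knockout A, B or D on the atherogenic diet, where between 0.0129% and 0.715% of all probes passed. Groups on chow did not overlap for 3 collagen probes (3.39% of all probes), and the median difference of the 46 was 0.11 beside 0.00 for all probes. The skeletal muscle markers ran from 1.28 to 2.20 in summed intensity in wild type and 2.00 to 12.3 in knockout on chow. The 12.3 was knockout D, and the group medians were 1.64 and 3.81. Of 4 measured muscle markers Mylpf was called lower in knockout. No marker of stellate cells, portal fibroblasts, cholangiocytes, endothelium, smooth muscle or macrophages was called on chow, and none of cartilage and bone, whose sums ran from 0.126 to 0.159 and 0.0997 to 0.136. Their part in the Col27a1 difference was not tested.

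On the atherogenic diet limma called none of the 46 collagen probes and 0.0214% of all probes, and 6 collagen probes had an unadjusted p under 0.05, 13.0%, against 10.7% of all. Array weights, the only other setting with a collagen call there, called Col10a1 and Col23a1. Col27a1 had ratios of -0.18, 0.10, 0.00 and -0.05 in wild type and 0.19, 0.29, 0.26, 0.18 and 0.32 in knockout. Every knockout value lay above every wild-type value, but the difference of 0.28 did not pass (SE 0.13, adjusted p = 0.451). Col23a1 on its brighter probe had ratios of -0.34 to 0.06 and 0.07 to 0.67, also without overlap, and a difference of 0.51 (SE 0.21, adjusted p = 0.388). Col10a1, a collagen of growth plate cartilage, was the third collagen probe without overlap, lower in knockout by 0.76 on a dim probe (adjusted p = 0.17). Such probes were 5.11% of all. Col1a1 and Col1a2 measured -0.23 and 0.09 (adjusted p = 0.849 and 0.896), with intervals from -0.99 to 0.54 and from -0.35 to 0.54.

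No collagen probe passed for the difference of the knockout effects between the diets, nor did any of the 23344 probes (0%), and 4 collagen probes had an unadjusted p under 0.05, 8.70%, against 5.77% of all. The lowest were Col27a1, whose effect was smaller on the atherogenic diet by 0.79 (interval of the difference -1.16 to -0.42, unadjusted p = 0.000282, adjusted p = 0.527), and Col1a1, smaller by 1.51 (-2.56 to -0.46, unadjusted p = 0.0073, adjusted p = 0.784). All 8 basement membrane probes had a negative difference, from -0.15 to -0.07 for the 3 brighter ones and from -0.68 to -0.26 for the 5 dim ones, and none of the 8 had an unadjusted p under 0.05. The difference was positive for 17 of the 46 collagen probes, 37.0%, and for 50.4% of all probes. These differences rest on the same mice as the comparison of diet effects.

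**Figure D3:**
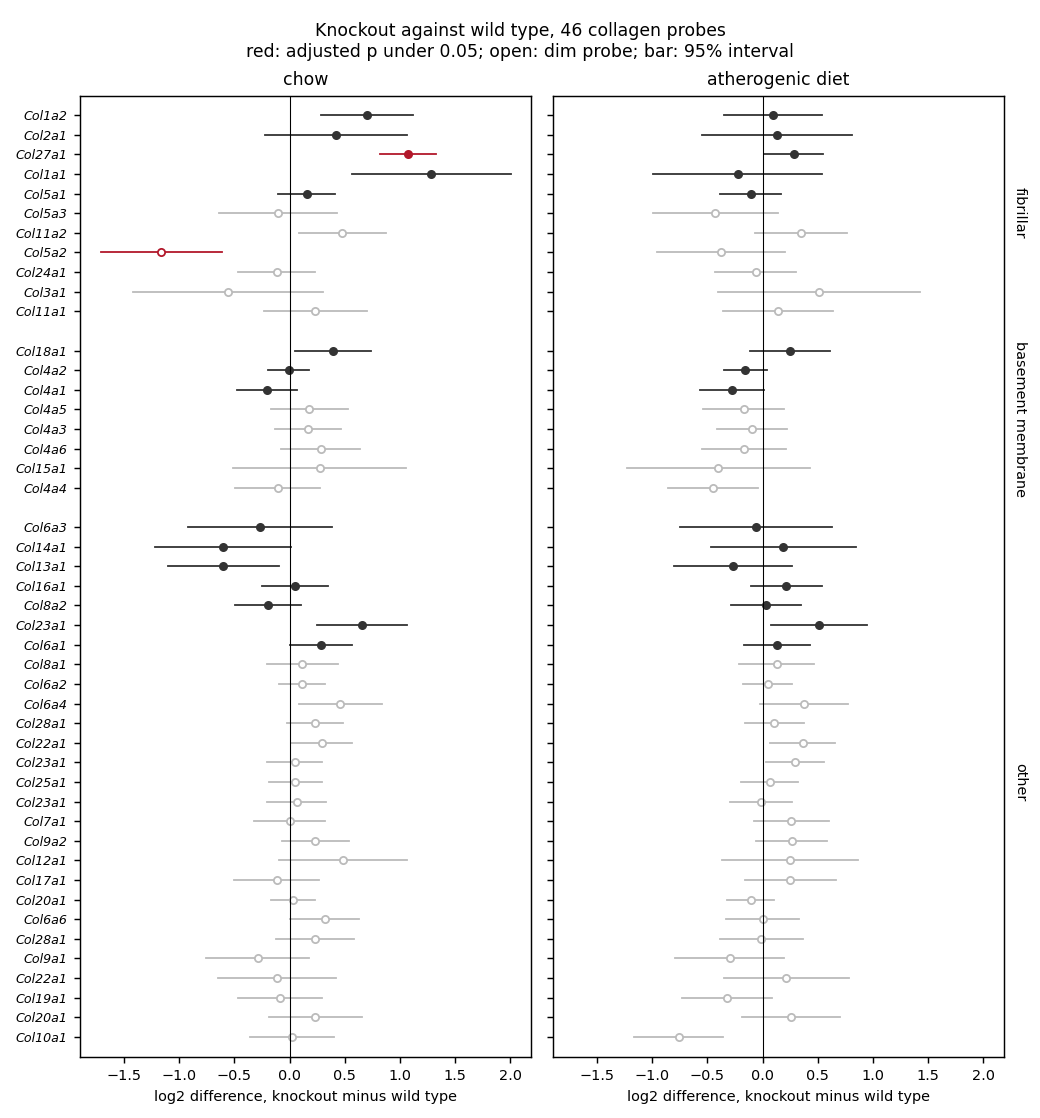
Log2 difference between knockout and wild type in the mouse-to-pool ratio for the 46 collagen probes, by class, on chow (left) and on the atherogenic diet (right), with 95% intervals. Red marks an adjusted p under 0.05, open circles are dim probes. On chow Col27a1 at 1.07 and Col5a2 at -1.16 passed, and none passed on the atherogenic diet.

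Averaged over the diets, 4 collagen probes of 46 passed, against 6.76% of all probes. The average is meant for knockout effects that are alike on both diets. For Col27a1 the effect was 1.07 on chow and 0.28 on the atherogenic diet, so its average describes neither diet. Col27a1 was higher in knockout by 0.68 (SE 0.09, adjusted p = 0.00355) and the brighter probe of Col23a1 by 0.58 (SE 0.14, adjusted p = 0.0256), with an interval of the fold from 1.22 to 1.84. Knockout D on chow, at 1.69, was the highest mouse for Col23a1, and without it the difference was 0.46 (adjusted p = 0.00756) while that of Col27a1 was 0.70 (adjusted p = 0.00158). The other 2 probes of Col23a1, both dim, did not pass, and with the 3 averaged the difference was 0.26 (adjusted p = 0.0648). A dim probe of Col22a1, a chain of tissue junctions, was higher by 0.33 (SE 0.10, adjusted p = 0.0472), a call that failed under 18 of 27 other settings. Col5a2 was lower by 0.77 (SE 0.19, adjusted p = 0.0266). The count of 4 was 7 without knockout A on chow, where 15.5% of all probes passed, 2 without wild-type E on chow (2.52% of all), and 1, Col27a1 alone, without wild-type A or D or knockout C on the atherogenic diet (1.17% to 2.40% of all). Of the pathway genes, Loxl1, Lamb3 and Fbn2 were called higher and Lox lower in knockout on average, and none of these on chow alone. Of the markers, Stab2 of the endothelium and Acta1 of muscle were called higher and Hhip of stellate cells lower, and their part was not tested.

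**Figure D4:**
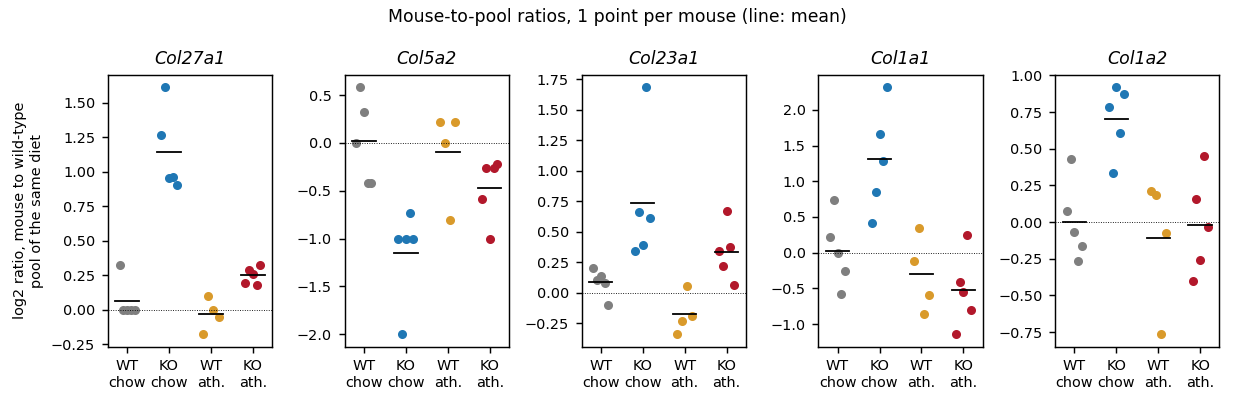
Log2 ratio of mouse to the wild-type pool of the same diet for the brightest probes of Col27a1, Col5a2, Col23a1, Col1a1 and Col1a2, with 1 point per mouse and a line at the group mean. Col27a1 in knockout mice on chow lies between 0.90 and 1.61, above every other group, and Col5a2 in the same mice lies at or below -0.74.

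Within groups, collagens differed in how they varied together. After the group mean was taken off, the normalised Col1a1 and Col1a2 values correlated over the 19 mice with a Pearson r of 0.815, and Col1a1 and Col5a1 with 0.693. Without knockout D on chow these were 0.816 and 0.782. Col14a1 and Col6a3 correlated with 0.749 (0.659 without that mouse) and Col4a1 and Col14a1 with 0.837 (0.514 without it). The most negative pair was Col14a1 and the brighter Col23a1 probe, at -0.848 (-0.676 without it), followed by Col4a1 and Col23a1 at -0.756 (-0.422). The type IV partners Col4a1 and Col4a2 correlated with -0.46, and with -0.023 without that mouse. The points share arrays and their normalisation, so these values describe the mice and carry no test.

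Among 19425 probes without missing values, those most like Col1a1 were Slco3a1 (0.846), Col1a2 (0.815), Cd200r1 (0.813), Foxs1 (0.788) and Slfn2 (0.787), with values from 0.787 to 0.857 without knockout D on chow. For Col4a1 they were Tanc1, Cobra1, Ifnar1, Neu1 and Gna11, with r from 0.945 to 0.981, and from 0.781 to 0.932 without that mouse. For the dim Col3a1 probe they were Sqrdl, Spcs3, Pnp, Mdh1 and Pgm2, with r from 0.941 to 0.962, and from 0.804 to 0.873 without it.

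Of the 31 dim collagen probes 27 passed in no comparison. Their diet effects lay between -0.69 and 0.67 in wild type and between -0.73 and 0.52 in knockout, and their knockout effects between -0.56 and 0.48 on chow and between -0.76 and 0.51 on the atherogenic diet. Col6a6, a chain of type VI, had the lowest adjusted p among them for the diet, 0.0627 in knockout, with a difference of -0.73.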

How the data were processed

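Total RNA (Trizol) was amplified from 100 ng in 2 rounds, per the labels' protocols, and the submitters' processing notes name Agilent Feature Extraction 8.5.1.1 for the 2-colour scans. For each probe and array the deposited table holds 2 columns of intensity, pool and mouse, rounded to 2 decimals at 0.01 and above. The authors' background correction and dye normalisation are not named by labels or headers. A second deposited table holds the log10 ratio of mouse to pool for each sample, and differed from that of the intensities by 2e-04 on the log2 scale (median over probes). Columns of the first table name strain and diet but no sample, so they were assigned to groups only. Among the 81 pairs of arrays sharing a pool, log ratios correlated at -0.328 or above, and the direction was kept since the dyes are stated in the labels. Columns of other samples numbered 0.

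Genotypes were compared on log2 ratios as deposited, and diets on the log2 Cy5 intensity normalised by loess (within arrays) and Aquantile (between them). Each model had 4 group means and was run in R 4.3.3 with limma 3.58.1 (lmFit, eBayes) on the 23344 probes with at least 3 values in each group (224 left out, a filter set after the files were seen), with Benjamini-Hochberg adjustment over all of them and a threshold of 0.05. Mice are the replicates. The scripts were tested on simulated data. Members, gene lists and tests were chosen with earlier results of these data known. Values are given for every collagen probe that passed in a comparison and for the 3 brightest genes per class, and up to 4 members per gene list are named by lowest p. Other members named, such as Serpinh1, Tgfb1, Acta2, Lrat, Pdgfrb and Krt19, were chosen after their values were seen. Symbols are those of the table. No coordinates of probes are given, since no build is named for the arrays.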

Additional observations from a re-analysis of the deposited data

Results flagged for a closer look

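The search covered 17 collagen probes, the 14 called in some comparison and 3 others among the brightest of their class. In 135 groups of mice it looked for a mouse whose gap to its nearest neighbour was large for the range of its group. It found 15. The rule flags about 1 in 20 by chance where values have no ties. Rounded ratios tie at 0.00 and the groups share mice, so the count is not read against that rate. Knockout D on chow accounts for 5. It was low for Col4a1, with a ratio of -0.78 (others -0.14 to 0.00) and a normalised log2 intensity of -4.02 (others -3.15 to -2.81), and high for Col4a2, with a normalised log2 intensity of -0.56 (others -0.96 to -0.90). Its ratio was also high for the brighter probe of Col23a1, at 1.69 (others 0.34 to 0.66), and for the dim one, at 0.22 (others 0.00). Other mice on chow were knockout B for Col5a2, with a ratio of -2.00 (others -1 to -0.74), wild-type B for Col6a3, at 0.31 (others -0.26 to -0.15), and wild-type C for Col4a1, at 0.11 (others 0.00). Wild-type A had ratios of 0.32 for Col27a1 and 0.26 for Col4a3, where all others were 0.00.

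On the atherogenic diet wild-type C was low for Col1a2, with a normalised log2 intensity of -0.85 (others -0.19 to -0.06), and knockout C high for Col4a1, at -2.51 (others -2.65 to -2.62). Ratios stood apart at 0.58 for Col4a3 in wild-type B, at 0.26 for Col4a3 in knockout B and at -0.58 for the dim Col23a1 probe in wild-type D, each against others at 0.00. Where the others are all at 0.00, mouse and pool were deposited with the same rounded intensity.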

How the results depend on the processing

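The limits are 4 or 5 mice a group, rounding of dim probes and the scaling. On chow the count of collagen probes called was 2, and 0 after scale or quantile normalisation of the ratios between arrays, 1 with a pseudocount of 0.05, 4 with dim probes left out and 4 with array weights. It ranged from 1 to 7 with 1 mouse left out, while the count over all probes, 263, ranged from 3 to 3854. On the atherogenic diet the count was 0, and 2 with array weights. For the average it was 4, and 0 after scale normalisation, 2 with dim probes left out, 2 with probes averaged per gene, and 1 to 7 with 1 mouse left out. For the diet it was 8 in wild type (5 to 10 with 1 mouse left out) and 9 in knockout (7 to 11). The cause of these changes was not tested. Fewer probes are adjusted over when dim ones are left out, and the part of this in the counts was not tested either. Replicate numbers of the second table did not pair the mice: same-numbered wild-type and knockout mice correlated between -0.427 and -0.032 on chow and between -0.059 and 0.103 on the atherogenic diet. With the replicate block on that table the chow count was 1 and that of the average 2, and without the block both equalled the main counts. None of 629 alternative values of single called probes reversed, 523 kept their call, 101 no longer passed, and 5 pool differences moved by more than the spread between mice.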
